A study of Rattus norvegicus with 15 samples.

Results

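Endothelin and prostanoid vasoregulators were taken as 8 genes: the endothelin ligands Edn1 and Edn3, their receptors Ednra and Ednrb, the endothelin-converting enzyme Ece1, the cyclooxygenases Ptgs1 and Ptgs2, and the thromboxane receptor Tbxa2r. The members were all probe sets whose only gene symbol in the platform annotation was one of these 8. That gave 10 of the 8740 probe sets that are not array controls, and they stood for 6 of the 8 genes, among 4736 genes named by a probe set of their own. No probe set carried the symbol Ednra or Ednrb, so the endothelin receptors were not analysed here. Of the 10 probe sets, 9 passed the filter on low signal, which asks for a signal at or above the array's own 40th percentile on at least 3 arrays, and were among the 6512 tested.

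RNA was measured in rat mesenteric arteries, the vessels that feed the gut, on 15 Affymetrix rat arrays, in a series on what may underlie the poorer growth of collateral arteries in hypertension. The groups were collateral arteries of SHR, the spontaneously hypertensive rat (4 arrays), control arteries of SHR (4), collateral arteries of WKY, the normotensive Wistar Kyoto rat usually set against it (4), and control arteries of WKY (3). A collateral artery was one beside which arteries had been occluded, a model that makes it carry more flow, and a control artery was labelled only as such. The labels used here name no drug or transgene, and they give neither ages nor the time after occlusion. They do not state that replicate arrays stand for different rats, and each p-value then reflects the scatter among these arrays alone, which may be technical.

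Endothelin-1, made mainly by endothelial cells as a large precursor and released in its active form by endothelin-converting enzyme, is among the strongest constrictors known in arteries. It acts on the type A receptor of smooth muscle, which constricts, and on the type B receptor, which on endothelium releases nitric oxide and prostacyclin. Cyclooxygenases turn arachidonic acid into the precursor of all prostanoids, the constitutive form being Ptgs1 and the inducible, immediate early form Ptgs2; prostacyclin relaxes arteries and thromboxane constricts them through Tbxa2r. In SHR arteries, cyclooxygenase products that act on this receptor are a textbook endothelium-derived constrictor.

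The promoter stretches of Edn1 and Ptgs2 are shown because their main probe sets had the lowest SHR to WKY differences of the members. Both were read 5′ to 3′ along the gene from RefSeq (build GRCr8), whose sequence is that of neither strain studied, and capitals mark the only matches found among 6 motifs searched on both strands of the windows from 250 bases before to 50 bases after each gene's annotated start. Edn1 lies on the minus strand, and its stretch is chr17:22666791-22666937, the first 147 bases of its window. Ptgs2 lies on the plus strand, and its stretch is chr13:64713813-64714062, the 250 bases before the start.
Edn1: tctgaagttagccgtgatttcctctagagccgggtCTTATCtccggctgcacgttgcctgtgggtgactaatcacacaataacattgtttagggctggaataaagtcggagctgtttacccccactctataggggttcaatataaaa
Ptgs2: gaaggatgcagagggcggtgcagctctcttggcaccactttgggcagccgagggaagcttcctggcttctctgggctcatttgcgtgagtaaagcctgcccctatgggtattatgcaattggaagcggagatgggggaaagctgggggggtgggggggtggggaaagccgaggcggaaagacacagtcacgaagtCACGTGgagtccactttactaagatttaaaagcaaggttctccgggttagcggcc
In Edn1 the capitals are the motif GATAAG read on the opposite strand, which begins 215 bases before the start and is the kind of site bound by GATA factors, known regulators of this gene in endothelial cells. In Ptgs2 they are CACGTG, the E-box, which begins 55 bases before the start. GATAAG occurred in 7.05% and CACGTG in 6.42% of the 33469 RefSeq windows, so each is a common match. The motifs TGANTCA (AP-1, in 7.33% of windows), TGACGTCA (CRE, in 1.83%), an NF-kB consensus (in 0.111%) and a serum response element (in 0.0329%) had no exact match in the windows of the 7 members that had one. Variants of these patterns, such as gtgactaa in the Edn1 stretch beside TGANTCA, were not searched, so sites of these factors may still be present. A match is a description of letters only, and the arrays measured no binding.

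Across the whole table, the array SHR collateral 3 stood apart: its Spearman correlation with the other 14 arrays lay between 0.496 and 0.657, against 0.805 to 0.931 among those 14, and the values without it are given beside the member results it moved most. SHR against WKY, averaged over both vessel types, gave 58 of 6512 probe sets at an adjusted p under 0.05 (limma, Benjamini-Hochberg), which is 0.891%, and 11.9% at an unadjusted p under 0.05. All 9 measured smooth muscle markers, by the brightest probe set of each, lay above each array's 20th percentile on every array. Of 9 endothelial markers only Icam2 (on 1 array) and Sele (on 5 arrays) fell below it on any. That level is low, and most probe sets of an array lie above it by definition. The 4 tested adipocyte markers also lay above it on every array, so it does not mark arterial cells. In bulk arteries, fewer cells of a type and less RNA per cell cannot be told apart.

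Averaged over both vessel types, Edn1 signal was 2.62-fold lower, Ptgs2 signal 2.94-fold lower and Ece1 signal 1.29-fold lower in SHR than in WKY arteries, by the main probe set of each gene, which is its brightest. These 3 main probe sets, of the 9 tested, were the members at an unadjusted p under 0.05 for SHR against WKY, all 3 in the lower direction, beside a background of 5.13% of all tested probe sets lower at that level. Edn1 reached the filter's level on 7 WKY arrays and only 1 SHR array, so it entered the test through the strain where it was high, and its place in that count supports nothing. None of the 9 passed an adjusted p of 0.05 in any of the 7 comparisons (limma), and the smallest adjusted p was 0.177. The median log2 difference of the 9 was -0.06, against 0.07 over all tested probe sets. The other members, Edn3, Ptgs1 and Tbxa2r, and the second probe sets of Ece1, Ptgs2 and Tbxa2r had log2 differences between -0.07 and 0.34.

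Edn1, the endothelin-1 precursor, had signals of 177.9, 121.2, 175.2 and 53.0 in SHR collateral arteries and 455.3, 54.4, 179.0 and 102.7 in SHR control arteries (probe set M64711_at, in the scaled units of the authors' MAS5 signal). In WKY it had 455.9, 301.7, 286.3 and 187.2 in collateral arteries and 550.7, 263.1 and 463.9 in control arteries. All 4 SHR collateral arrays lay below all 4 WKY collateral arrays, a separation in that direction seen for 1.55% of tested probe sets. In control arteries 3 of 4 SHR arrays lay below all 3 WKY arrays, and SHR control 1, at 455.3, was the exception; over both vessel types, 7 of 8 SHR arrays lay below all 7 WKY arrays. The signal was dim, with a median place at percentile 41.5 of its array and below the 20th percentile on 1 array, an SHR control one. It was at or above the 40th percentile on 0 of 4 SHR collateral, 1 of 4 SHR control, 4 of 4 WKY collateral and 3 of 3 WKY control arrays, so the filter alone favoured a lower value in SHR.

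On the log2 scale Edn1 averaged 6.89 ± 0.82 in SHR collateral arteries (SD, n = 4), 7.19 ± 1.30 in SHR control arteries (n = 4), 8.19 ± 0.53 in WKY collateral arteries (n = 4) and 8.67 ± 0.56 in WKY control arteries (n = 3). The 2 SHR groups lay lowest and differed from each other by less than their spread, as did the 2 WKY groups. The log2 difference between SHR and WKY was -1.39 ± 0.46 (SE; unadjusted p = 0.00721, adjusted p = 0.200, limma), and without SHR collateral 3 it was -1.48 (adjusted p = 0.152). With no filter on low signal, Edn1 was tested whichever arrays it was high on. The difference stayed at -1.39 by design, since a filter moves only its p-values (unadjusted p = 0.0063, adjusted p = 0.228, limma). In control arteries alone it was -1.48 ± 0.67 (unadjusted p = 0.0416, adjusted p = 0.730, limma), the only member of 9 at that level there, where 6.46% of tested probe sets were and 0.0307% passed the adjusted threshold. Without SHR control 2, the lowest of its group, this became -1.0, and without SHR control 1 it became -2.02. In collateral arteries it was -1.30 ± 0.62 (unadjusted p = 0.0514, adjusted p = 0.647, limma), which became -0.91 without SHR collateral 4 and -1.49 without SHR collateral 3.

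Collateral and control arteries did not differ in Edn1 beyond their spread. The log2 difference was -0.30 ± 0.62 in SHR and -0.47 ± 0.67 in WKY (SE; adjusted p = 0.956 and 1.00, limma). Its difference between strains was 0.18 ± 0.92, and its sign changed with the scaling of the arrays. The SHR value ran from -0.77 without SHR control 2 to 0.25 without SHR control 1, so its sign rests on single arrays, and with 1 array left out the WKY value ran from -0.79 to -0.25.

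Edn3, endothelin-3, a ligand best known for its part in neural crest and enteric nerve development through the type B receptor, ranged widely in these arteries. Its brighter probe set E02223cds_f_at read 94.6, 106.7, 2442 and 389.2 in SHR collateral arteries and 606.4, 436.1, 53.6 and 185.9 in SHR control arteries. In WKY it read 46.9, 601.6, 608.8 and 292.9 in collateral arteries and 567.5, 261.7 and 163.6 in control arteries. Every group spanned low and high values and all 4 overlapped; the highest of all, 2442, was on SHR collateral 3. The log2 difference between SHR and WKY was -0.06 ± 0.74 (SE; adjusted p = 0.988, limma) and became -0.56 without that array. The other Edn3 probe set, S39779_at, did not pass the filter: its signals lay between 14.97 and 185.9 and below the 20th percentile on 11 of 15 arrays.

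**Figure D1:**
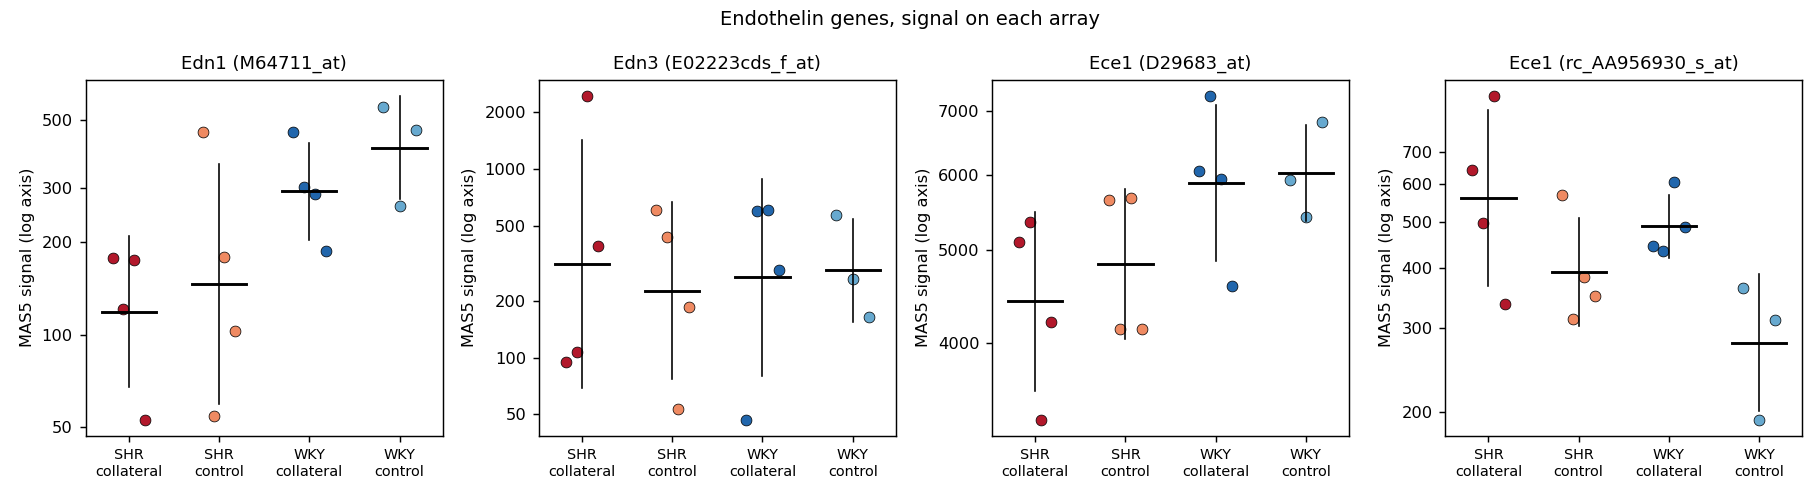
Signal of the endothelin ligands and the converting enzyme on each array (vertical log axis, scaled MAS5 units), with SHR collateral, SHR control, WKY collateral and WKY control arteries from left to right. Each point is an array, the horizontal bar is the group mean of log2 signal and the vertical line its SD. For Edn1, 7 of 8 SHR arrays lie below all WKY arrays, while the 4 groups of Edn3 overlap.

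Ece1, the membrane protease that cuts big endothelin to its active form, was strongly detected by probe set D29683_at, with a median place at percentile 94.3 of its array. Its signals were 5104, 5351, 3326 and 4207 in SHR collateral arteries and 5650, 4133, 5673 and 4141 in SHR control arteries, against 6059, 7253, 5931 and 4586 in WKY collateral arteries and 5930, 5413 and 6814 in WKY control arteries. All 8 SHR arrays lay below the WKY median and 4 of them below all 7 WKY arrays. The log2 difference was -0.36 ± 0.17 (SE; unadjusted p = 0.0480, adjusted p = 0.414, limma), and without SHR collateral 3, which had the lowest signal, it was -0.30 at an unadjusted p of 0.0612. With no filter on low signal the unadjusted p was 0.0516 at the same difference, which a filter cannot move. Between vessel types it was -0.08 ± 0.17 over both strains.

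The other Ece1 probe set, rc_AA956930_s_at, gave another picture. It read 644, 499, 919 and 337.2 in SHR collateral arteries and 571, 313.4, 384 and 349.5 in SHR control arteries, and in WKY 446.7, 434.1, 608.1 and 488.9 in collateral arteries and 364.4, 193 and 311.4 in control arteries. The WKY collateral arrays all lay above the WKY control arrays, as 3.61% of tested probe sets did, while the SHR groups overlapped. The log2 difference between collateral and control arteries over both strains was 0.66 ± 0.28 (SE; unadjusted p = 0.0313, adjusted p = 0.940, limma), and 0.54 at an unadjusted p of 0.0557 without SHR collateral 3, its brightest array. It was the only member of 9 at an unadjusted p under 0.05 in that comparison, where 5.11% of tested probe sets were and 0 passed the adjusted threshold. Within strains the difference was 0.51 ± 0.38 in SHR and 0.81 ± 0.42 in WKY, and the difference of these changes was -0.30 ± 0.57. With 1 array left out these ran from 0.28 (without SHR collateral 3) to 0.76 in SHR, from 0.54 to 1.0 in WKY and from -0.53 to -0.03 for their difference. For SHR against WKY this probe set gave 0.34 ± 0.28 (0.21 to 0.47 with 1 array left out), the opposite sign to the brighter one.

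Ptgs2, the inducible cyclooxygenase (COX-2), varied widely between arrays of 1 group. Probe set S67722_s_at read 69.8, 1117, 469.3 and 446.6 in SHR collateral arteries and 674.9, 1593, 459.4 and 568.1 in SHR control arteries. In WKY it read 3571, 1063, 1220 and 1886 in collateral arteries and 2827, 720.7 and 1101 in control arteries. In each vessel type 3 of 4 SHR arrays lay below all WKY arrays of that type, and over both types 6 of 8 SHR arrays lay below all 7 WKY arrays, the exceptions being SHR collateral 2 and SHR control 2. SHR collateral 1, at 69.8, was the only array on which Ptgs2 lay below the 20th percentile.

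In log2 signal Ptgs2 averaged 8.48 ± 1.68 in SHR collateral arteries (SD, n = 4), 9.51 ± 0.79 in SHR control arteries (n = 4), 10.75 ± 0.79 in WKY collateral arteries (n = 4) and 10.35 ± 1.01 in WKY control arteries (n = 3). The order put both SHR groups below both WKY groups, and each neighbouring pair in it differed by less than the larger of its SDs. Over both vessel types SHR minus WKY was -1.56 ± 0.49 (SE; unadjusted p = 0.00544, adjusted p = 0.177, limma), or -1.62 without SHR collateral 3. In collateral arteries it was -2.27 ± 0.67, a 4.81-fold lower signal (unadjusted p = 0.00330, adjusted p = 0.384, limma), the only member of 9 at that level, where 7.62% of tested probe sets were and 0 passed the adjusted threshold. In control arteries it was -0.85 ± 0.72 (unadjusted p = 0.257, adjusted p = 0.992, limma), and with 1 array left out it ran from -1.28 to -0.29, the last without WKY control 1.

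A single array carries much of the Ptgs2 difference in collateral arteries. Without SHR collateral 1 it was -1.48 (unadjusted p = 0.0145, adjusted p = 0.523, limma), and the value over both vessel types was -1.16 (adjusted p = 0.214). With arrays weighted by their estimated quality the collateral difference was -3.50 (adjusted p = 0.0233) and the value over both vessel types -2.02 (adjusted p = 0.0329). That weighting gave SHR collateral 1 the highest weight of the 15 arrays, 2.78, and SHR collateral 3 the lowest, 0.161. Collateral against control arteries gave -1.03 ± 0.67 in SHR, which became -0.24 without SHR collateral 1, and 0.39 ± 0.72 in WKY. The difference of these changes was -1.42 ± 0.99 (unadjusted p = 0.167, adjusted p = 1.00, limma). It was -0.63 without SHR collateral 1 and -2.96 with array weights (unadjusted p = 0.00766, adjusted p = 1.00, limma). In the unweighted fit of all arrays none of the 9 member probe sets was at an unadjusted p under 0.05 there, where 1.9% of all tested were.

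The other Ptgs2 probe set, L25925_s_at, did not show the strain difference. It read 229.9, 700.5, 702.1 and 196.8 in SHR collateral arteries and 150.2, 208.6, 542.2 and 324.4 in SHR control arteries, against 355.6, 391.8, 280.5 and 196.7 in WKY collateral arteries and 189.4, 271.9 and 700.4 in WKY control arteries. All groups overlapped, and SHR minus WKY was 0.05 ± 0.41 (SE; adjusted p = 0.980, limma). In collateral arteries it was 0.38 ± 0.56, and between vessel types over both strains 0.17 ± 0.41. Without SHR collateral 3 these 3 values were -0.09, 0.10 and 0.03.

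Ptgs1, the constitutive cyclooxygenase (COX-1), had similar signals in both strains. It read 912.4, 627.4, 421.9 and 908.6 in SHR collateral arteries and 928.6, 602.8, 912.7 and 765.8 in SHR control arteries, and in WKY 1044, 831.1, 1485 and 586.7 in collateral arteries and 566.3, 650.4 and 713.1 in control arteries (probe set U03388_s_at). The groups overlapped throughout, and SHR minus WKY was -0.07 ± 0.25 on the log2 scale (SE; adjusted p = 0.960, limma), a sign that changed without SHR collateral 3, its lowest array. Collateral minus control was -0.21 ± 0.34 in SHR and 0.54 ± 0.37 in WKY, and the difference of these changes was -0.75 ± 0.51 (unadjusted p = 0.156). Without SHR collateral 3 the SHR value was 0.02 and the difference of changes -0.52, and with 1 array left out the WKY value ran from 0.32 to 0.76. No member was at an unadjusted p under 0.05 for collateral against control arteries within SHR, where 3.76% of tested probe sets were, or within WKY, where 3.16% were.

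Tbxa2r, the receptor through which thromboxane and prostaglandin endoperoxides constrict arteries, read 1633, 1508, 1755 and 1048 in SHR collateral arteries and 1128, 816.3, 1704 and 1751 in SHR control arteries (probe set D32080_at). In WKY it read 1030, 1047, 436.8 and 1353 in collateral arteries and 1104, 1676 and 1259 in control arteries. In collateral arteries 3 of 4 SHR arrays lay above all 4 WKY arrays, and WKY collateral 3 was the lowest of all. The log2 difference there was 0.71 ± 0.36 (SE; unadjusted p = 0.0622, adjusted p = 0.647, limma), against -0.04 ± 0.38 in control arteries. Averaged over vessel types it was 0.33 ± 0.26. Collateral minus control was 0.18 ± 0.36 in SHR and -0.57 ± 0.38 in WKY, with 0.75 ± 0.52 for the difference of these changes. Much of this rests on 1 array: without WKY collateral 3 the strain difference was 0.36 in collateral arteries and 0.16 on average, collateral minus control in WKY was -0.22, and the difference of changes was 0.40. With each array left out in turn the collateral strain difference ran from 0.36 to 0.91. Its dimmer probe set D21158_s_at, from 109.2 to 466.9 over the 15 arrays, gave 0.11 ± 0.38 between strains and -0.02 ± 0.38 between vessel types.

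**Figure D2:**
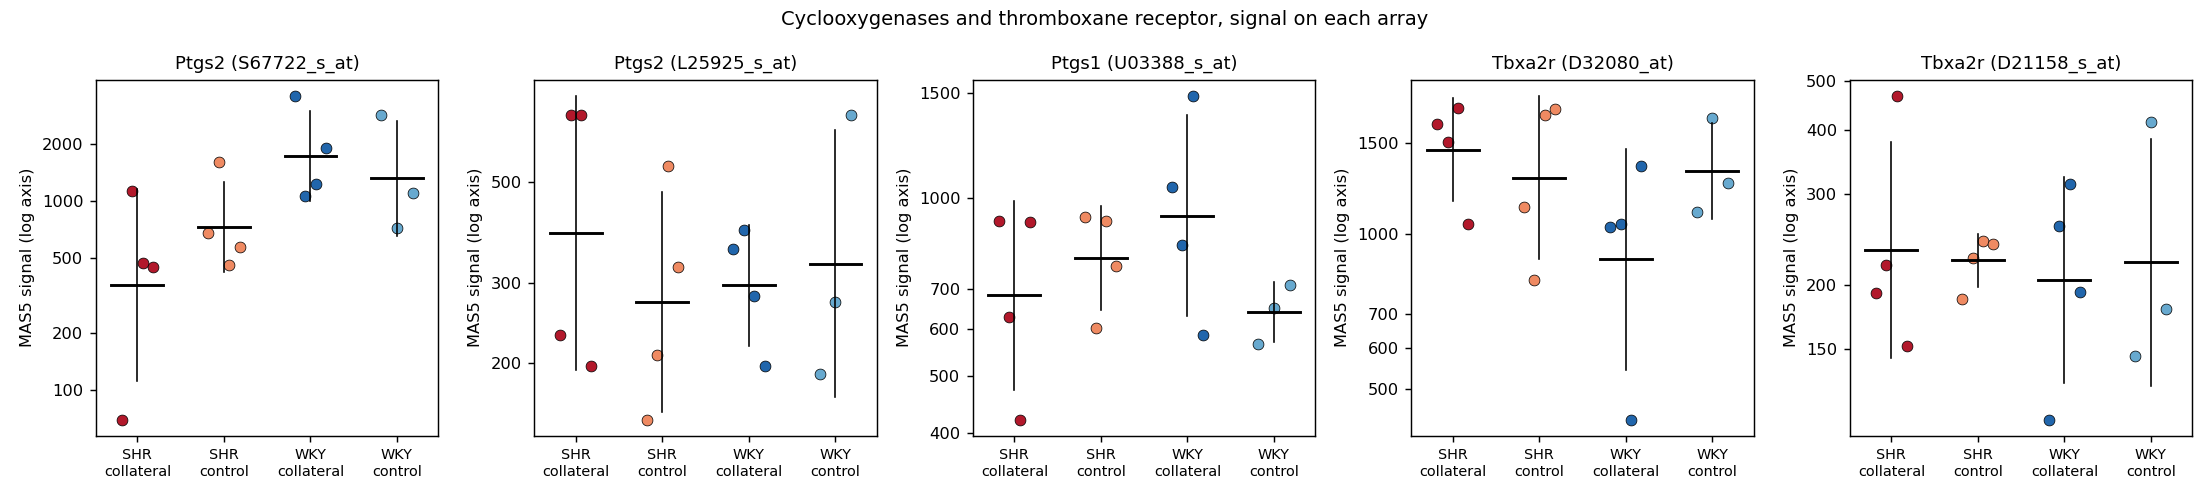
Signal of the cyclooxygenases and the thromboxane receptor on each array (vertical log axis, scaled MAS5 units), with SHR collateral, SHR control, WKY collateral and WKY control arteries from left to right. Points are arrays, horizontal bars group means of log2 signal and vertical lines their SD. Ptgs2 by S67722_s_at has 6 of 8 SHR arrays below all WKY arrays, and by L25925_s_at all groups overlap.

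**Figure D3:**
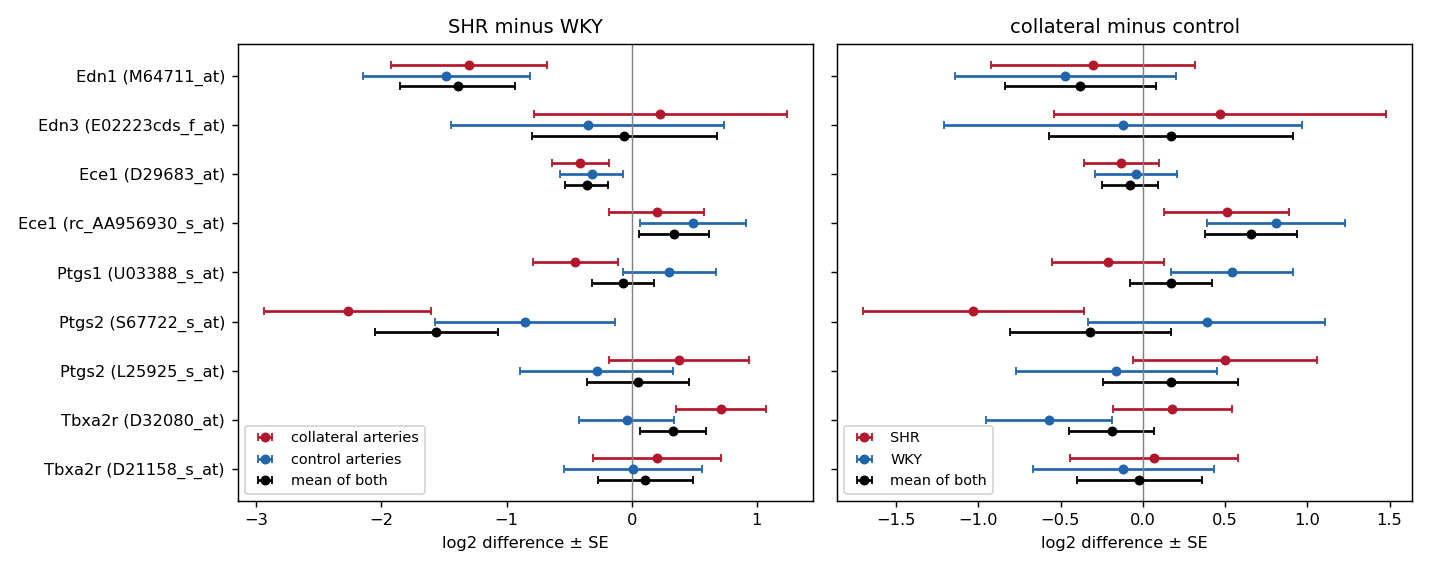
Log2 differences of the 9 tested member probe sets with their SE: SHR minus WKY on the left, collateral minus control on the right, each within both levels of the other factor and as their mean. Edn1 and the brighter Ptgs2 probe set lie farthest below 0 for the strains, at -1.39 and -1.56 in the mean, and no difference on either side passed an adjusted p of 0.05.

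For the 4 genes with a pair of probe sets, the members of the pair did not track each other over the 15 arrays. Pearson's r of log2 signal was -0.03 for Ptgs2, -0.23 for Ece1, 0.15 for Tbxa2r and 0.02 for Edn3, with Spearman's rho of -0.14, -0.09, 0.36 and -0.19 for the same 4 genes in that order. Without SHR collateral 3 the r of the Edn3 pair was -0.45 and that of the other pairs lay between 0.01 and 0.14. All pairs share the arrays and their scaling. In Affymetrix naming the endings s_at and f_at mark probe sets whose probes may match several transcripts or a sequence family, and both Ptgs2 probe sets, Ptgs1, the dimmer ones of Ece1 and Tbxa2r and the brighter one of Edn3 bear such an ending. Which of each pair measures its gene better was not tested, so the Ptgs2 and Ece1 differences stand as those of 1 probe set each.

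**Figure D4:**
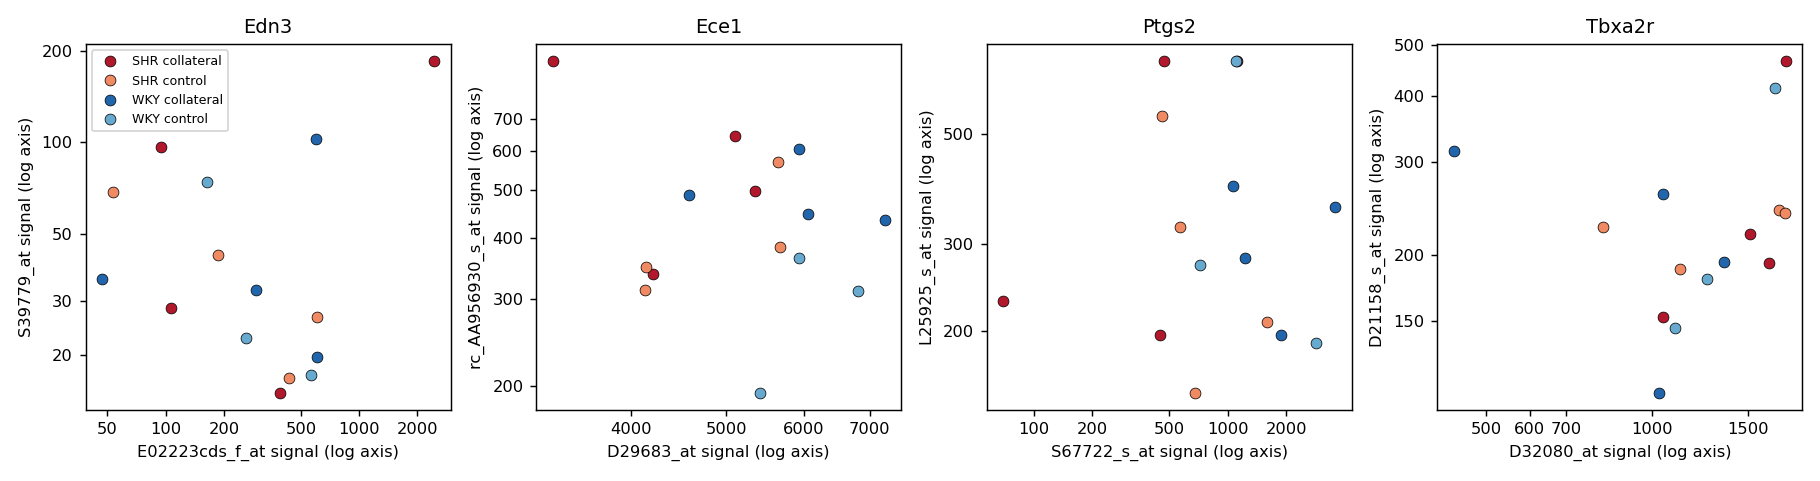
Signals of each pair of probe sets of Edn3, Ece1, Ptgs2 and Tbxa2r, 1 point per array (both axes logarithmic, scaled MAS5 units), coloured by group. The points of each pair scatter without a common line, with Pearson's r between -0.23 and 0.15.

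Among the main probe sets, Edn1 and Ece1, the ligand and its activating protease, had the highest r, 0.70 (rho = 0.82), over 15 arrays. The r was 0.82 without SHR collateral 3 and 0.48 for deviations from the 4 group means, a measure on which Ece1 and Ptgs1 were more alike, at 0.58. Edn1 and Ptgs2 had r = 0.32, and -0.16 for deviations from the group means. These 15 points are arrays of 4 groups, and the values are descriptions.

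The 3 genes whose log2 signals were most like those of Edn1 over the 15 arrays were Icam1, an endothelial adhesion molecule (r = 0.83, rho = 0.86), Clu, the chaperone clusterin (r = 0.80, rho = 0.86), and RGD1306474 (r = 0.79, rho = 0.67). Without SHR collateral 3 their r was 0.83, 0.81 and 0.81, and for deviations from group means 0.68, 0.68 and 0.73. Icam1 read 3438, 3206, 3435 and 2042 in SHR collateral arteries and 5208, 3136, 2369 and 1498 in SHR control arteries, against 11020, 5081, 7139 and 2793 in WKY collateral arteries and 12830, 5371 and 10190 in WKY control arteries. Like Edn1, it was high on WKY collateral 1 and on WKY control 1 and 3. For Ece1 the genes most alike were Srgn (r = 0.84), the proteoglycan serglycin, Nfkbia (0.80), an inhibitor of NF-kB, and Vcam1 (0.80), an adhesion molecule. Without SHR collateral 3 these r were 0.75, 0.73 and 0.73.

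By its main probe set S67722_s_at, Ptgs2 varied most like immediate early genes, which are induced within minutes of a stimulus. The genes most like L25925_s_at, which did not track the main probe set, were not sought. The 3 most alike were the transcription factors Fos (X06769cds_at, r = 0.84, rho = 0.77), Nr4a1 (U17254_at, r = 0.84, rho = 0.79) and Egr1 (M18416_at, r = 0.82, rho = 0.80). For deviations from group means these r were 0.84, 0.89 and 0.74, so the likeness also ran between arrays of 1 group. Fos read 258.6, 3587, 452.5 and 1032 in SHR collateral arteries and 1308, 3506, 962.4 and 1452 in SHR control arteries, against 2556, 1511, 3082 and 2962 in WKY collateral arteries and 8342, 3439 and 4840 in WKY control arteries. SHR collateral 1 was lowest for Fos as for Ptgs2, and SHR collateral 2 and SHR control 2 were the high SHR arrays for both. The probe sets named for Fos, Nr4a1 and Egr1 are not the brightest of their genes. Over the probe sets of Egr1, SHR minus WKY ran from -1.96 (M18416_at) to -0.05 (U75398_s_at). By the brightest tested probe set of each, 23 of the 26 immediate early genes tested lay lower in SHR than in WKY over both vessel types. At an unadjusted p under 0.05 were 17 of these, beside 5.13% of all tested probe sets lower at that level. The adjusted threshold, which 0.891% of all tested probe sets passed in either direction, was passed by 5 (limma): Dusp1, Klf6, Nr4a3, Egr2 and Arc. Among the 17 was Fosl1, which entered the test through WKY arrays alone. Their median log2 difference was -1.0, against 0.07 over all tested probe sets. Their summed signal ran from 66904 to 222415 in SHR collateral arteries and from 77565 to 288174 in SHR control arteries, against 219439 to 297105 in WKY collateral arteries and 338816 to 424191 in WKY control arteries. Their part in the Ptgs2 difference was not tested, nor was that of tissue handling, which the labels do not describe beyond the kit.

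**Figure D5:**
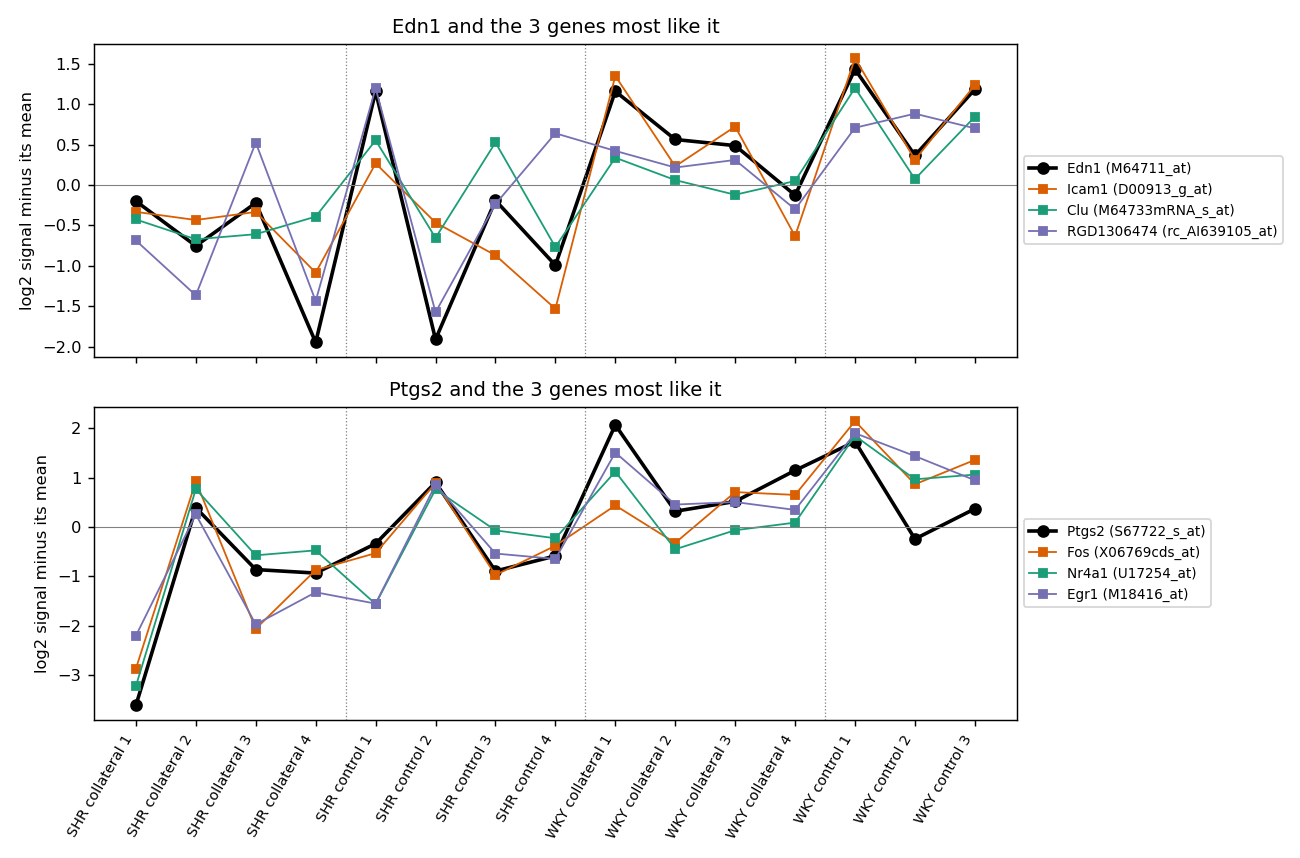
Log2 signal minus its mean over the 15 arrays (vertical) for Edn1 and Ptgs2, in black, and the 3 genes most like each, array by array (horizontal), with SHR collateral, SHR control, WKY collateral and WKY control arrays from left to right. Fos, Nr4a1, Egr1 and Ptgs2 by S67722_s_at are lowest together on SHR collateral 1, and Edn1 with Icam1 is highest on WKY control 1.

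The genes most like the remaining members had r between 0.75 and 0.86. They were St13, Misfal and Adk for Edn3 (r = 0.83, 0.82 and 0.80), and Ccnd1, Dnaaf9 and Psmd2 for Ptgs1 (r = 0.77, 0.75 and 0.75). For Tbxa2r they were Plec, Isl1 and Rab34 (r = 0.86, 0.81 and 0.80). Leaving out SHR collateral 3 lowered the r of Edn3 to between 0.68 and 0.75 and that of Ptgs1 to between 0.63 and 0.66, and left that of Tbxa2r between 0.78 and 0.87.

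Endothelial cells are a main source of Edn1, and their markers gave no single direction between strains. Of 9 tested, 4 lay lower and 5 higher in SHR, at a median of 0.05 on the log2 scale. Icam2, an endothelial adhesion molecule, fell by 2.79 on the log2 scale (adjusted p = 0.00454, limma), 1 of the 0.891% of tested probe sets that passed, and Sele and Selp, the endothelial selectins, had -1.47 and -1.15 at unadjusted p of 0.0170 and 0.0119. Sele reached the filter's level on 5 WKY arrays and 1 SHR array. Pecam1 and Flt1, markers of the endothelial lining, had 0.70 and 1.12 at unadjusted p of 0.0309 and 0.0139. Flt1 reached the filter's level on 4 SHR collateral and 3 SHR control arrays, but on 1 WKY collateral and 1 WKY control array. So Sele entered the test through WKY and Flt1 through SHR, each through the strain where it was high, and their differences are descriptions. The summed signal of the 9 ran from 3709 to 10262 in SHR collateral arteries, 5075 to 5675 in SHR control arteries, 4814 to 12258 in WKY collateral arteries and 7239 to 9430 in WKY control arteries. Its SHR control range lay below that of WKY control arteries, while the collateral ranges overlapped, and the part of endothelial content in the Edn1 difference was not tested. Smooth muscle markers had a median of -0.43, with 8 of 9 lower and 0 past the adjusted threshold (3 lower at an unadjusted p under 0.05, as were 5.13% of all tested probe sets).

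Of 34 other genes of these pathways that were listed, 27 had a probe set and 19 were tested. For SHR against WKY 2 of the 19 lay higher at an unadjusted p under 0.05, beside a background of 6.73% higher, and 0 lay lower. Those 2 were Alox5ap and Hpgds, and Hpgds entered the test through SHR arrays alone, so the count supports nothing. None passed the adjusted threshold (limma), and the median log2 difference was 0.16. Prostacyclin synthase (Ptgis), thromboxane synthase (Tbxas1), the prostacyclin receptor (Ptgir) and the cytosolic phospholipase Pla2g4a were among those with no comparison at that level.

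Alox5ap, the protein that presents arachidonic acid to 5-lipoxygenase for leukotriene synthesis, had signals of 901.6, 716.6, 1286 and 1000.0 in SHR collateral arteries and 1145, 798.9, 735.0 and 304.5 in SHR control arteries (probe set rc_AI104781_at). In WKY it had 474.5, 283.7, 410.2 and 581.4 in collateral arteries and 330.4, 394.0 and 324.1 in control arteries. All SHR collateral arrays lay above all WKY collateral arrays, as for 2.07% of tested probe sets, and all SHR control arrays but 1, SHR control 4, above all WKY control arrays. The log2 difference was 1.06 ± 0.29 (SE; unadjusted p = 0.00172, adjusted p = 0.0959, limma), with 0.95 ± 0.42 in control and 1.17 ± 0.39 in collateral arteries. Without SHR control 4 the adjusted p was 0.0178 at a log2 difference of 1.25. With each array left out in turn the difference ran from 0.93 to 1.25 and the adjusted p from 0.0178 to 0.22 (limma). Its other probe set, X52196cds_at, gave 0.93 ± 0.42 (unadjusted p = 0.0418, adjusted p = 0.40, limma).

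Hpgds, the haematopoietic prostaglandin D synthase of mast cells and other immune cells, read 134.7, 227.5, 90.9 and 152.0 in SHR collateral arteries and 147.2, 164.8, 149.2 and 228.3 in SHR control arteries, against 92.0, 149.7, 48.9 and 25.3 in WKY collateral arteries and 21.7, 50.2 and 113.0 in WKY control arteries (probe set D82071_at). The signal was dim: it lay below the 20th percentile on 5 arrays and reached the filter's 40th percentile on only 3, which were 2 SHR collateral arrays, 1 SHR control array and 0 WKY arrays. It was tested only because it was high in SHR, so its differences are descriptions. The SHR control arrays lay above all WKY control arrays, as did 4.85% of tested probe sets, and the collateral groups overlapped. The log2 difference was 1.46 ± 0.51 (SE) and 1.77 ± 0.75 in control arteries, where it was 1.17 without WKY control 1. With no filter on low signal the 1.46 was the same by design, at an unadjusted p of 0.00613 and an adjusted p of 0.226 (limma). The other Hpgds probe set, AF021882_s_at, did not pass the filter and lay below the 20th percentile on 9 arrays. It read 109.2, 121.5, 185.0 and 21.83 in SHR collateral arteries and 49.95, 36.06, 72.99 and 64.04 in SHR control arteries. In WKY it read 44.45, 36.25, 116.9 and 56.44 in collateral arteries and 31.17, 59.62 and 148.5 in control arteries. By this probe set the strains overlapped in both vessel types.

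Markers of macrophages and mast cells lay on the same side as both genes, as did most adipocyte, nerve and Schwann markers. By the brightest tested probe set of each, all 7 macrophage markers tested were higher in SHR over both vessel types. Their median log2 difference was 1.07, and 5 of them were at an unadjusted p under 0.05 beside 6.73% of all tested probe sets. The adjusted threshold was passed by 2 (limma) beside 0.891%, Cd74 at 3.52 and C1qb at 2.21. Among dimmer tested probe sets of these genes, Aif1 by U33471_at had -0.14 and Cd14 by AF087944mRNA_s_at -0.04, while the rest lay higher. The lowest of the 7 by its brightest probe set was C1qc, at 0.07. Their summed signal ran from 17277 to 32842 in SHR collateral arteries and 5777 to 45711 in SHR control arteries, against 4992 to 20039 in WKY collateral arteries and 3507 to 6131 in WKY control arteries. Of the 8 listed mast cell markers with a probe set, 4 were tested, and all 4 were also higher, with a median of 0.94. At an unadjusted p under 0.05 were 2 of them, Cma1 and Cpa3, and the chymase Cma1 passed at 1.19 (adjusted p = 0.0376, limma). Cpa3 reached the filter's level on 4 SHR collateral and 3 SHR control arrays, but on 1 WKY collateral and 1 WKY control array. It thus entered the test through SHR, where it was high, and its place in that count supports nothing. The lowest, the tryptase Tpsb2, was at 0.06. Their summed signal ran from 3663 to 7540 in SHR collateral arteries and 4104 to 6757 in SHR control arteries, against 2220 to 3723 in WKY collateral arteries and 2718 to 3981 in WKY control arteries. Of the lymphocyte markers 2 were tested, Cd8a at -0.47 and Cd79b at 0.28 (unadjusted p = 0.428 and 0.596, limma). Of the 4 adipocyte markers tested, 3 lay higher and 1 lower in SHR, at a median of 1.08, with 0 at an unadjusted p under 0.05 (limma). Of the 7 nerve and Schwann markers tested, 5 lay higher and 2 lower, at a median of 0.51. The part of any of these cells in the Alox5ap and Hpgds differences was not tested.

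Pla2g2a, a secreted phospholipase that frees arachidonic acid, read 7903, 2854, 5794 and 3705 in SHR collateral arteries and 9829, 6032, 10190 and 7197 in SHR control arteries, against 5775, 2812, 5176 and 7352 in WKY collateral arteries and 6519, 4660 and 6021 in WKY control arteries. The SHR groups overlapped, with 3 of 4 collateral arrays below all control arrays. Collateral minus control in SHR was -0.79 ± 0.33 (SE; unadjusted p = 0.0289, adjusted p = 0.949, limma). It was the only one of the 19 genes at that level within SHR by its main probe set, where 1.69% of tested probe sets were lower.

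A dim probe set of Ptger3, a receptor of prostaglandin E2 that constricts arteries, was higher in SHR collateral than in SHR control arteries, while the brighter one had the opposite sign. By D14869_s_at it read 136.5, 542.3, 1453 and 149.4 in SHR collateral arteries and 75.6, 23.6, 32.1 and 82.2 in SHR control arteries, against 116.9, 75.1, 50.1 and 161.3 in WKY collateral arteries and 76.1, 65.1 and 23.8 in WKY control arteries. This probe set lay below the 20th percentile on 6 arrays and reached the filter's 40th percentile on only 3, all of them SHR collateral. It was tested only because it was high there, so it had to differ and its values are descriptions. All SHR collateral arrays lay above all SHR control arrays, a separation 0.906% of tested probe sets showed, and SHR collateral 3 was the highest. The log2 difference in SHR was 2.94 ± 0.81 (SE), and 2.26 without SHR collateral 3. Over both strains it was 1.92 ± 0.59. With no filter on low signal the SHR value was 2.94 by design, at an unadjusted p of 0.00108 and an adjusted p of 0.951 (limma). By D16443_g_at, the brighter one, Ptger3 read 576, 610.6, 354.6 and 574 in SHR collateral arteries and 913, 597.3, 717.6 and 617 in SHR control arteries, with overlapping groups. Its collateral minus control difference in SHR was -0.44 ± 0.37 (SE; unadjusted p = 0.246, adjusted p = 0.949, limma). Another Ptger3 probe set, D16443_at, did not pass the filter and lay below the 20th percentile on 10 arrays. It read 106.6, 85.06, 218.2 and 34.52 in SHR collateral arteries and 24.25, 114.9, 20.26 and 19.44 in SHR control arteries. These groups overlapped.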

How the data were processed

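Total RNA from rat mesenteric arteries was labelled and hybridised to 15 arrays, 1 per sample, grouped by strain and vessel type from the sample titles. The authors deposited a signal for each probe set on each array, and the submitters' processing notes name GCOS and MAS5 as its tools, with versions not given in the sources used. The mean after trimming 2% was 1001.1 to 1001.7 on every array, so arrays had been scaled to a common level. Here 59 array control probe sets were left out, signals were floored at 1 (12 values) and taken to log2, and 6512 probe sets were tested. Of 8740 probe sets, 7006 had 1 gene symbol, 308 several and 1426 none; only those with 1 were named.

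The test was that of limma 3.58.1 (R 4.3.3): a mean for each of 4 groups, a moderated two-sided test with a variance trend (degrees of freedom: 11 residual, 7.19 prior), with p-values adjusted by Benjamini and Hochberg's method over all tested probe sets and a threshold of 0.05. The 7 comparisons were SHR against WKY in each vessel type and averaged, collateral against control arteries in each strain and averaged, and the difference of the strains' collateral changes. The code was tested on simulated data. The number of arrays limits the precision, with a median SE of 0.366 for the average strain difference.

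The members and gene lists were chosen with earlier results of these data known. Every member probe set was reported, other pathway genes were named where an unadjusted p was under 0.05 in any comparison, and the genes most alike were the 3 with the highest Pearson r to the member's main probe set. Replicate numbers were not taken to pair samples, because no label says what they pair. Between same-numbered collateral and control arrays the correlation of deviations was 0.0805, 0.0629, 0.0409 and -0.0696 in SHR. In WKY it was 0.306, 0.0155 and 0.168. With a control array of another number it reached at most -0.00617, 0.0395, 0.0366 and 0.101 in SHR. In WKY these highest values were -0.099, 0.0763 and 0.113. The same-numbered value was the higher one for SHR 1, 2 and 3 and for WKY 1 and 3, so pairing is not excluded. Alternatives were quantile normalization, centred arrays, array weights, a constant added before log2, no filter or a 60th percentile filter, a fit without variance trend, a fit of only the arrays compared, a replicate block, an adjusted p of 0.10, and each array left out.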

Additional observations from a re-analysis of the deposited data

How the results depend on the processing

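The number of probe sets passing for SHR against WKY, averaged over vessel types (58), was 31 with arrays centred on their medians, 34 without a variance trend, 184 with array weights, 119 at an adjusted p of 0.10 and 30 (without SHR control 3) to 101 (without SHR control 4) with 1 array left out. In control arteries (2) it was 0 with no filter, 0 with a 60th percentile filter, 1 without a trend, 14 with array weights, 7 with only the arrays compared and 0 to 6 with 1 array left out. In collateral arteries (0) it was 26 with array weights, 2 with only the arrays compared, 6 at 0.10 and 0 to 7 with 1 array left out. The other 4 comparisons kept 0. With the replicate number as a random block the strain counts were 49, 2 and 0, and the counts between vessel types stayed at 0 with a random or a fixed replicate block; a fixed block could not be fitted to the strain comparisons. Centring the arrays moved the median of all tested probe sets by -0.14 for SHR against WKY, -0.24 in collateral arteries and -0.20 for the difference of the collateral changes, and member differences moved with it.

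Over 53 values printed for single probe sets and 1311 repeats, 58 repeats in 15 values changed sign and 5 newly passed. Changing the filter, the variance trend or the threshold, or fitting only the arrays compared, leaves each difference as it was. No sign could change in those runs, and Edn1 did not pass the 60th percentile filter. In the other alternative runs the strain differences of Edn1, of Ece1 by its brighter probe set and of Ptgs2 by S67722_s_at kept their sign. With 1 array left out the Edn1 value ran from -1.66 to -1.15 (adjusted p 0.113 to 0.365) and that of Ptgs2 from -1.83 to -1.16 (adjusted p 0.0782 to 0.366). With array weights Ptgs2 passed at -2.02 and, in collateral arteries, at -3.50, and Alox5ap passed at 1.01 (adjusted p = 0.0396). Alox5ap also passed at 0.10, with an adjusted p of 0.0959, and without SHR control 4. With 1 array left out its value ran from 0.93 to 1.25 (adjusted p 0.0178 to 0.22). The cause of these moves was not tested.

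The sign changes were as follows. Under array weights, collateral minus control in SHR was 0.07 for Edn1 and 0.12 for Ptgs1. Under array weights SHR minus WKY was 0.11 for Ptgs1, -0.09 for Tbxa2r by D21158_s_at and -0.18 for Ptgs2 by L25925_s_at, which also gave -0.02 in collateral arteries and -0.06 between vessel types, where Edn3 gave -0.46. The difference of the collateral changes of Edn1 was -0.09 after quantile normalization, -0.03 with centred arrays and -0.04 with the fixed replicate block. SHR minus WKY was -0.08 and -0.05 after quantile normalization and -0.09 and -0.03 with centred arrays for those dimmer Ptgs2 and Tbxa2r probe sets, and 0.01 for Edn3 with the added constant. Collateral minus control of Tbxa2r in SHR was -0.00 with centred arrays. With 1 array left out, signs changed within -0.77 to 0.25 for Edn1 in SHR and -0.30 to 0.72 for its difference of changes. For Ptgs2 by S67722_s_at, collateral minus control ran from -0.59 to 0.08 over both strains and -0.04 to 0.95 in WKY, and by L25925_s_at from -0.03 to 0.44, with -0.15 to 0.32 between strains. Ptgs1 ran from -0.18 to 0.05 between strains and -0.35 to 0.02 in SHR. Tbxa2r ran from -0.19 to 0.18 between strains in control arteries and -0.04 to 0.34 in SHR, and by D21158_s_at from -0.06 to 0.33 between strains and -0.19 to 0.20 between vessel types. Edn3 ran from -0.56 to 0.29 and -0.32 to 0.59. Dim signal limits Edn1, Edn3, Hpgds and the second probe set of Ptger3, which lay below the 20th percentile on 1, 2, 5 and 6 arrays.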
